A study of Homo sapiens with 3 samples.

Results

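The proteasome subunit genes were examined for 2 promoter marks in KBM7, a near-haploid human cell line established from a chronic myeloid leukaemia. The genes were taken by symbol: all protein-coding RefSeq genes whose names begin with PSMA, PSMB, PSMC, PSMD, PSME or PSMF and a digit. The rule found 46 of the 19974 protein-coding genes that lie on an autosome or chromosome X. They comprise the 3 immunoproteasome genes PSMB8, PSMB9 and PSMB10, the thymus gene PSMB11 and the testis gene PSMA8, 5 genes of activators and an inhibitor (PSME1 to PSME4 and PSMF1), and 34 constitutive genes. The remaining 2, PSMC3IP and PSME3IP1, fit the symbol rule but encode proteins that interact with proteasome components, not subunits.

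The cells were wild type and untreated. They gave 1 ChIP library for H3K27ac (Abcam antibody), 1 for H3K4me3 (Millipore antibody) and 1 input library, which had no antibody. All were made from the same line, grown in IMDM with 10% FBS, so no genotype, treatment or time was compared. With 1 library per mark there is no replicate error and no test between genes. The intervals given with fragments and their ratios are exact Poisson 95% intervals that cover counting error only. Those given with shares of genes are Wilson 95% intervals, which treat genes as independent draws although some share a peak interval. They cover no spread between libraries and are no test against the share of all genes.

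The proteasome degrades proteins that carry ubiquitin chains. Its core is a stack of alpha and beta rings, with the proteolytic sites inside the beta rings, and a regulatory particle with an ATPase ring, a base and a lid binds, unfolds and feeds in the substrate. In cells exposed to interferon, PSMB8, PSMB9 and PSMB10 replace the catalytic subunits PSMB5, PSMB6 and PSMB7 in newly built cores, and blood cells are known for holding such immunoproteasomes without that signal. H3K4me3 marks promoters of active or poised genes, and H3K27ac marks active promoters and enhancers.

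Each gene is described by its strongest peak within 1 kb of either gene end. Fold is the authors' enrichment at the peak summit over the local expected background, and is used only within the list of its own mark. The fragments at a summit are the whole-number pileup that the authors' fold and p-value imply. The lists hold 96659 H3K27ac and 36951 H3K4me3 peaks on these chromosomes, with median summits of 21 and 39 fragments, and the weakest summits held 9 and 8. The total number of reads in each library is unknown here. As a check of the cell label, all 10 genes listed as myeloid and progenitor, among them CD33, KIT and SPI1, carried both marks. The same held for 3 of 10 genes of other cell types and for 60.4% of all protein-coding genes. Among the 3 were the T-cell genes CD3E and CD3D, whose H3K4me3 folds were 14.2 and 29.1 and H3K27ac folds 18.2 and 17.0. The median folds of the 10 genes listed as myeloid and progenitor were 53.8 for H3K4me3 and 22.7 for H3K27ac. That list holds BCR and ABL1, which are not markers of a lineage and had H3K4me3 folds of 86.5 and 81.5. CD33 had only 19.4 and 17.4, so the folds of the lists overlap. MS4A1, ALB, APOB, DES, SYT1 and KRT5 had no peak of either mark at an end, and CKM had a weak H3K4me3 peak.

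Proteasome genes carried both marks at an end in 41 of 46 cases (89.1%, Wilson interval 77.0 to 95.3), against 60.4% of all protein-coding genes. H3K27ac was present at 42 members, with 63.2% of all genes as background, and H3K4me3 at 41, with 66.7%. By class, both marks were at 3 of 3 immunoproteasome genes, 0 of 2 thymus and testis genes, 4 of 5 activator and inhibitor genes and 32 of 34 constitutive genes. The members without both were PSMB11, PSMA8, PSMF1, PSMD5 and PSMA6, and they fall into unlike cases. Over all 46 members, with a gene without a peak counted as 0, the median H3K27ac fold was 24.0, against 13.6 over all protein-coding genes. The median H3K4me3 fold was 70.2 over the members, against 47.8 over all genes. The median member stood at percentile 70.7 of all genes for H3K27ac and 76.7 for H3K4me3.

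**Figure D1:**
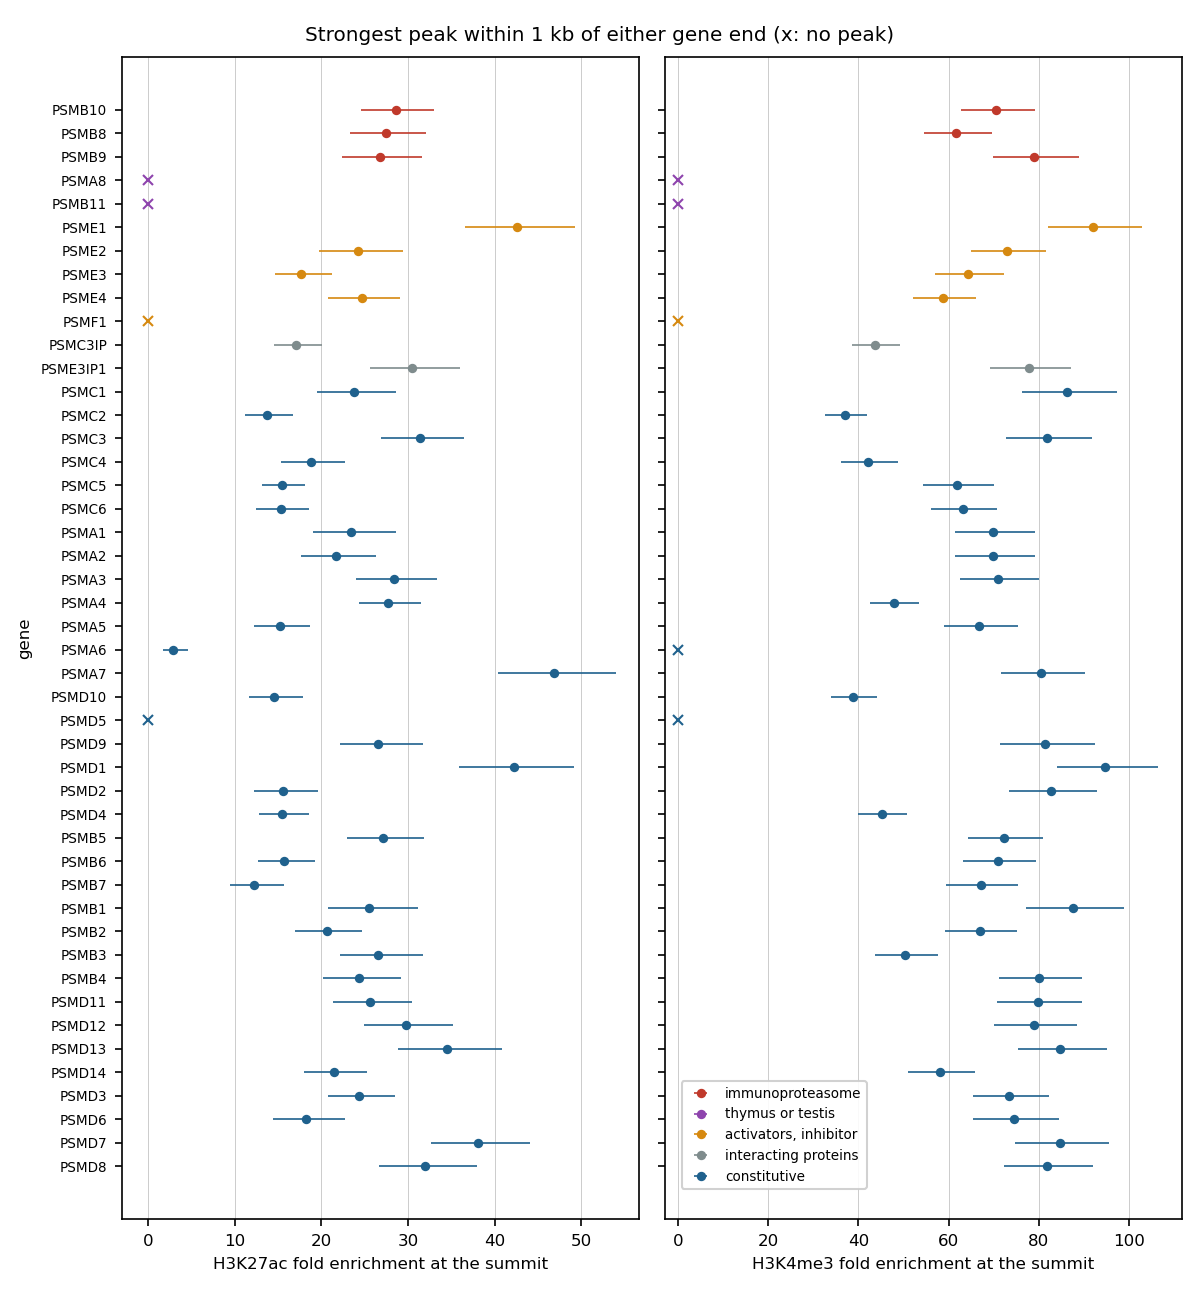
Fold enrichment at the strongest peak within 1 kb of either gene end, for H3K27ac (left) and H3K4me3 (right). Each row is a gene, colours give the class, bars are the exact Poisson 95% interval of the summit fragments at the fitted background, and crosses are genes without a peak. Immunoproteasome genes lie at 26.7 to 28.6 for H3K27ac, inside the range of the constitutive genes, and PSMA8 and PSMB11 have no peak of either mark.

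The 3 immunoproteasome genes carried both marks in these untreated cells, at levels inside the range of the constitutive genes. PSMB8 encodes the immunoproteasome's chymotrypsin-like subunit and PSMB9 its counterpart of PSMB6. PSMB10 encodes the trypsin-like one. PSMB8 and PSMB9 lie 9513 bp apart in the major histocompatibility complex on chromosome 6, PSMB8 at 32840717 to 32844679 and PSMB9 at 32854192 to 32859851, and PSMB10 lies on chromosome 16 at 67934506 to 67936850 (all hg38). Their promoters are shown because these are among the genes of the family known to be induced by interferon. The 250 bases before the RefSeq start are printed 5′ to 3′ on the strand of the gene (GRCh38.p14), for PSMB8 chr6:32844680-32844929, minus strand, for PSMB9 chr6:32853942-32854191, plus strand, for PSMB10 chr16:67936851-67937100, minus strand and, for comparison, for the constitutive catalytic gene PSMB5 chr14:23035221-23035470, minus strand. Capitals mark letters that match a motif on either strand, from the list given with the motif counts further on.
PSMB8: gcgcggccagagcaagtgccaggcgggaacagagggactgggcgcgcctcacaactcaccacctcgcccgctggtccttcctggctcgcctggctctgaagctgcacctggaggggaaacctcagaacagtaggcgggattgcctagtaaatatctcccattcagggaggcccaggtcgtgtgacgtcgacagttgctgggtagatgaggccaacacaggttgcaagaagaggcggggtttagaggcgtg
PSMB9: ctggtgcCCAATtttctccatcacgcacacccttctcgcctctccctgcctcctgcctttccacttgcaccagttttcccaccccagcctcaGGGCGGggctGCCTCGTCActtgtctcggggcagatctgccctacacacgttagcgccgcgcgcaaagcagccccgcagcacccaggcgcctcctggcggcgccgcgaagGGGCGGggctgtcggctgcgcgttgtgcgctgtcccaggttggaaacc
PSMB10: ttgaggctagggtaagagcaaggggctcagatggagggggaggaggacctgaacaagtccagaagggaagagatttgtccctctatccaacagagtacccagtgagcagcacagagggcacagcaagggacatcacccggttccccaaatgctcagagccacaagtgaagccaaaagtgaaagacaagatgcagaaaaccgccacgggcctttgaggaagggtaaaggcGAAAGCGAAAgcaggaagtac
PSMB5: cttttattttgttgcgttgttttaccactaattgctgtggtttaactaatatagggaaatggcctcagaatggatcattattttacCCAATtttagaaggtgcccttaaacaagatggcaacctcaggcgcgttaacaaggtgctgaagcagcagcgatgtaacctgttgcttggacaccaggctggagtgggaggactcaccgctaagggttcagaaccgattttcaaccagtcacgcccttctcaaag
The capitals in PSMB10 are the core of the interferon-stimulated response element, at 21 to 12 bases before the start. Those in PSMB9 are a CCAAT motif, a pair of GC boxes and, on the opposite strand, the core of the antioxidant response element. Those in PSMB5 are a CCAAT motif. None of the searched motifs lies in the 250 bases printed for PSMB8.

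At PSMB8 the H3K27ac summit had 156 fragments (132 to 182) and a fold of 27.4 in an interval of 3526 bp. The H3K4me3 summit of PSMB8 had 268 fragments (237 to 302) and a fold of 61.7 in 3117 bp. Both summits of PSMB8 lay well inside the gene, 893 bp and 853 bp downstream of its start, and the intervals also overlap the antisense RNA gene PSMB8-AS1 and the 3′ end of TAP1.

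PSMB9 shares its promoter interval with TAP1, which encodes a subunit of the peptide transporter of antigen presentation and starts 488 bp away on the other strand. The H3K27ac summit there had 134 fragments (112 to 159) and a fold of 26.7 in 2570 bp. The H3K4me3 summit had 270 fragments (239 to 304) and a fold of 79.0 in 2982 bp. Both summits lay on the TAP1 side, 180 and 257 bp downstream of the start of TAP1 and at -668 and -745 bp from the start of PSMB9. Peaks do not show which of these genes a mark belongs to.

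PSMB10 had the most H3K27ac fragments of the 3, with 183 (157 to 212), a fold of 28.6 and an interval of 2081 bp whose summit lay 156 bp downstream of its start. Its H3K4me3 summit had 289 fragments (257 to 324) and a fold of 70.5 in 2607 bp. A second H3K27ac interval inside the gene was weaker, at 36 fragments and a fold of 9.17.

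Set beside the catalytic subunit it replaces, each immunoproteasome gene had a similar or larger H3K27ac summit. PSMB8 had 156 fragments and PSMB5 had 149 (126 to 175), a ratio of 1.05 whose interval of 0.831 to 1.32 includes equality. PSMB9 had 134 fragments and PSMB6, which encodes the caspase-like subunit, had 89 (71.5 to 110), a ratio of 1.51 (1.14 to 1.99). The PSMB9 summit is that of the interval shared with TAP1 and lies on the TAP1 side, so this ratio may not be one of PSMB9 alone. PSMB10 had 183 fragments and PSMB7, the trypsin-like subunit, had 61 (46.7 to 78.4), a ratio of 3.00 (2.23 to 4.08). The last of these differences is the widest, and in the fold it was 28.6 for PSMB10 against 12.3 for PSMB7. For H3K4me3 the same ratios were 0.905 (0.765 to 1.07), 0.900 (0.761 to 1.06) and 1.05 (0.888 to 1.24), so none differed beyond counting error. The strongest H3K27ac intervals were also wider, at 3526 bp for PSMB8 against 2003 bp for PSMB5, 2570 bp for PSMB9 against 595 bp for PSMB6, and 2081 bp for PSMB10 against 914 bp for PSMB7. PSMB5, PSMB6 and PSMB7 had 3, 2 and 2 H3K27ac intervals within 1 kb of their ends. PSMB8, PSMB9 and PSMB10 had 1, 1 and 2. These widths are therefore not the full extent of the mark at each gene. All of these comparisons rest on peaks of 1 library, and whether they would hold in another was not tested.

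**Figure D2:**
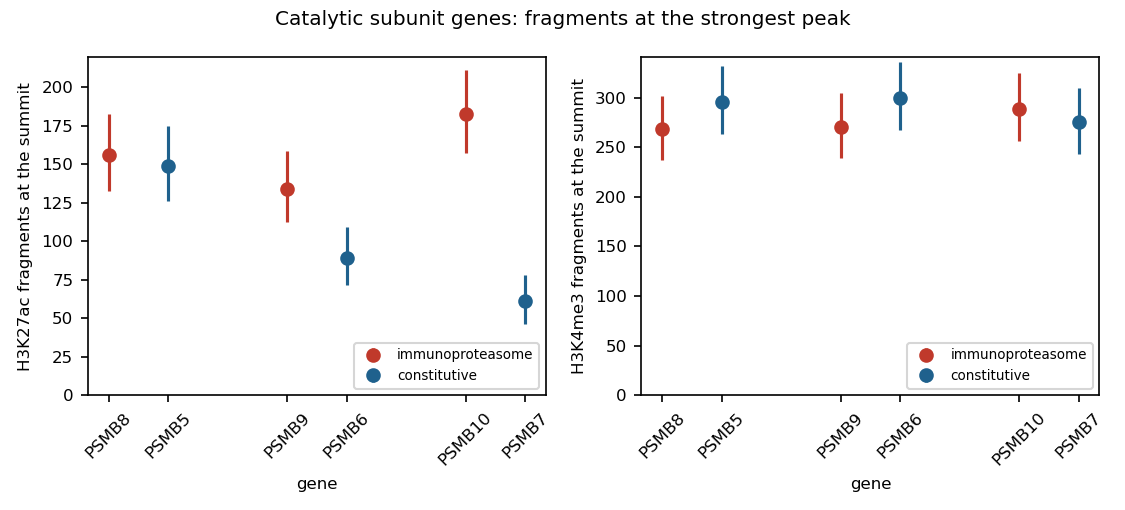
Fragments at the summit of the strongest peak of each immunoproteasome gene and of the constitutive catalytic gene it replaces, for H3K27ac (left) and H3K4me3 (right), with exact Poisson 95% intervals. For H3K27ac PSMB10 had 183 fragments and PSMB7 had 61, whereas for H3K4me3 all 6 genes had 268 to 300. The values of PSMB9 are those of an interval shared with TAP1.

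Against the constitutive genes, by the peaks at gene ends, the 3 immunoproteasome genes stood in the upper part of the H3K27ac range and in the middle of the H3K4me3 range. Their median H3K27ac fold was 27.4, against 23.6 for the constitutive genes. Of the 33 constitutive genes with an H3K27ac peak at an end, 7 had a fold above all 3 and 23 had one below all 3. None of these 33 intervals was wider than that of PSMB8 and 27 were narrower than the narrowest of the 3, but an interval of 11491 bp lies at the listed start of PSMA6, away from its gene ends. The median H3K4me3 fold was 70.5 for the immunoproteasome genes, against 71.0 for the constitutive genes with an absent peak counted as 0. Of the 32 constitutive genes with an H3K4me3 peak at an end, 12 lay above all 3 and 7 below. The other two are PSMD5, without a peak, and PSMA6, whose H3K4me3 fold at its listed start was 80.6.

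The thymus and testis subunits had no peak of either mark at their ends or anywhere inside the gene. PSMB11 (chromosome 14, 23042212 to 23044060) encodes a catalytic subunit of cortical thymic epithelium that takes the place of PSMB5, and PSMA8 (chromosome 18, 26133869 to 26193355) encodes an alpha subunit of male germ cells that takes the place of PSMA7. Among all protein-coding genes 30.4% had neither mark at an end and 23.8% had neither anywhere in the gene, so an unmarked gene is common in these lists. PSMB11 lies 6992 bp from PSMB5, whose H3K4me3 interval is the nearest to it at 6.8 kb and had 296 fragments. The nearest H3K27ac peak of PSMB11 was 3.2 kb away, a weak one of 13 fragments near CDH24. For PSMA8 the nearest H3K4me3 and H3K27ac peaks were 22 and 32.6 kb away, with 34 and 27 fragments. PSMA7, by contrast, had the highest H3K27ac fold of all members, 46.8 from 188 fragments (162 to 217), and an H3K4me3 fold of 80.5. A gene without a peak here had no summit that passed the q threshold of the deposited lists, which is not the same as no histone mark.

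The promoters of the 2 tissue subunits are shown because they differ in base composition although neither was marked. They are chr14:23041962-23042211, plus strand, and chr18:26133619-26133868, plus strand.
PSMB11: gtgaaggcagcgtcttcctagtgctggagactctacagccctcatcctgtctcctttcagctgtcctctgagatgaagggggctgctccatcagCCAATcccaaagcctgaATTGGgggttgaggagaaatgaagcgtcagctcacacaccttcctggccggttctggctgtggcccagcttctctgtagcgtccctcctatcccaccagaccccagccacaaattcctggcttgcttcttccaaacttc
PSMA8: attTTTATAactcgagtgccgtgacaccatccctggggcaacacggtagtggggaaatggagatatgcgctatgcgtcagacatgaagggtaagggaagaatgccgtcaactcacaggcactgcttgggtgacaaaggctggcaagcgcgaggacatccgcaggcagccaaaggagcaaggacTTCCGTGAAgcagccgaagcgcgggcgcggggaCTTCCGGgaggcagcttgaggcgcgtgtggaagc
Capitals mark CCAAT on both strands of PSMB11, and in PSMA8 the letters of TATAAA on the opposite strand, TTCNNNGAA (a STAT motif) and CCGGAAG (an ETS motif, on the opposite strand). Over the full window of 300 bases PSMB11 had a CpG ratio, observed over expected from its C and G content, of 0.169 with 4 CpG sites, and PSMA8 had 0.922 with 25. The median ratio over 4550 genes with neither mark at an end was 0.314, and over 9887 genes with both it was 0.846. PSMA8 thus lacked both marks although its CpG ratio was above the median of genes that carry them.

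Of the activators, PSME1 stood out in both marks. PSME1 and PSME2 encode the interferon-inducible activator that caps the core particle and are neighbours on chromosome 14 (PSME1 at 24136194 to 24138962, PSME2 at 24143365 to 24146610). PSME1 had an H3K27ac fold of 42.6 from 178 fragments (153 to 206) and an H3K4me3 fold of 92.0 from 304 fragments (271 to 340), in each mark the second highest fold of the 46. At the start of PSME2 the H3K27ac fold was 22.5 from 144 fragments (121 to 170). That interval also covers the start of RNF31, a ubiquitin ligase gene that starts 265 bp away on the other strand. The H3K27ac summit lay on the RNF31 side, at -491 bp from the start of PSME2, so the value may not be one of PSME2 alone. The fold of 24.2 that the rule picks for PSME2 belongs to a narrower peak beyond its 3′ end. The H3K4me3 interval at the start of PSME2 had a fold of 72.9 in 3775 bp and is shared with RNF31 too. Its summit lay 743 bp downstream of the start of RNF31. PSME3, which encodes a nuclear activator, had lower folds of 17.7 for H3K27ac and 64.2 for H3K4me3. PSME4, whose large nuclear activator is known from testis and DNA repair, had 24.6 and 58.7, in intervals that also cover the start of ACYP2 120 bp away. PSME4 had a further H3K27ac interval of 2885 bp inside the gene, 8545 bp from its start, with 96 fragments and a fold of 22.2. H3K4me3 there reached a fold of only 8.59.

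PSMF1, the gene of the proteasome inhibitor, had neither mark at its annotated ends but strong marks a short way inside. Its record begins at 1113263 of chromosome 20, which is also its start in the RefSeq promoter table. The H3K4me3 interval lay at 1117623 to 1121037, with its summit 5585 bp downstream, 265 fragments (234 to 299) and a fold of 83.1. H3K27ac lay there in 2 intervals, of 60 and 83 fragments and folds of 12.5 and 19.2. The sequence before the annotated start, chr20:1113013-1113262, plus strand, is shown because it holds neither mark, no searched motif and few CpG sites.
PSMF1: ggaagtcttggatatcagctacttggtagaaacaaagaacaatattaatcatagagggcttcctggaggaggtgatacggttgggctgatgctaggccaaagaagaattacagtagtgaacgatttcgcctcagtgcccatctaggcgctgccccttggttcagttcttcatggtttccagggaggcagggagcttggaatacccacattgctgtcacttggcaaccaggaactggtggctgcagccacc
It had a CpG ratio of 0.205 with 4 sites. The sequence under the marked interval was not analysed here.

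Of the interacting proteins, PSME3IP1, named for its binding to PSME3, had an H3K27ac fold of 30.5 and an H3K4me3 fold of 77.8. PSMC3IP, a meiotic recombination factor, had 17.1 and 43.6, from 156 and 260 fragments over backgrounds of 8.16 and 4.98.

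Of the constitutive genes, 32 of 34 had both marks at an end and PSMD5 alone had none. PSMD5 (chromosome 9, 120816053 to 120842922) encodes a chaperone that helps to assemble the base of the regulatory particle and is not part of the finished particle. No peak of either mark lay in the gene or within 1 kb of it. The nearest H3K27ac peak was 13.1 kb away and had 12 fragments. The nearest H3K4me3 peak, 21.3 kb away at FBXW2, had 258 fragments and a fold of 68.5. Within 50 kb of PSMD5 there were 18 H3K27ac and 7 H3K4me3 peaks, so the gap is local. A super-enhancer, as called in the authors' deposited table, assigned to PHF19 and ranked 72, lay 38.6 kb away. The promoter of PSMD5 is shown as the unmarked constitutive case (chr9:120842923-120843172, minus strand), with TGACNNNGC in capitals.
PSMD5: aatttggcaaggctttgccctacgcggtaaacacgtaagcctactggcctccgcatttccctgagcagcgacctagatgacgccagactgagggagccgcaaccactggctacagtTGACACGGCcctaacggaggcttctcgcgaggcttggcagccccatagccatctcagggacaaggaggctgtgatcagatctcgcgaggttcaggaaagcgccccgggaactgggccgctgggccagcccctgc
Its CpG ratio was 0.654 with 19 sites in 300 bases, and its G and C content was 62.3%. The other assembly chaperones of this group were marked, PSMD9 at an H3K27ac fold of 26.6 and an H3K4me3 fold of 81.4 and PSMD10 with 14.5 and 38.8.

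PSMA6 and PSMA1, which encode alpha ring subunits, are cases where the gene record extends far upstream of the listed start. Their starts in the promoter table lie more than 1 kb from both gene ends, as in 9.58% of the 15813 genes with a listed start. The record of PSMA6 begins 13759 bp before its listed start, and the ends of the record held a weak H3K27ac peak only (15 fragments, fold 2.89). At the listed start of PSMA6, however, H3K4me3 had 271 fragments (240 to 305) and a fold of 80.6, and H3K27ac had 198 fragments (171 to 228) and a fold of 21.7. That H3K27ac interval spans 11491 bp, from 35283653 to 35295143 of chromosome 14, and is among the widest of the list, where 114 of 96659 (0.118%) are at least as wide. Its summit lay at -6230 bp from the listed start of PSMA6, beside a second H3K4me3 interval of 86 fragments and a fold of 13.2. The record of PSMA1 extends 123276 bp beyond its listed start to the neighbourhood of PDE3B. The interval that the rule picks for PSMA1, at folds of 23.4 in H3K27ac and 69.9 in H3K4me3, includes an end of PDE3B, a phosphodiesterase gene. At the listed start PSMA1 had 25.1 for H3K27ac and 47.8 for H3K4me3, with 134 and 255 fragments. With listed starts added to the gene ends, a choice made after these values were seen, 42 of 46 members had both marks, against 61.8% of all genes.

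**Figure D3:**
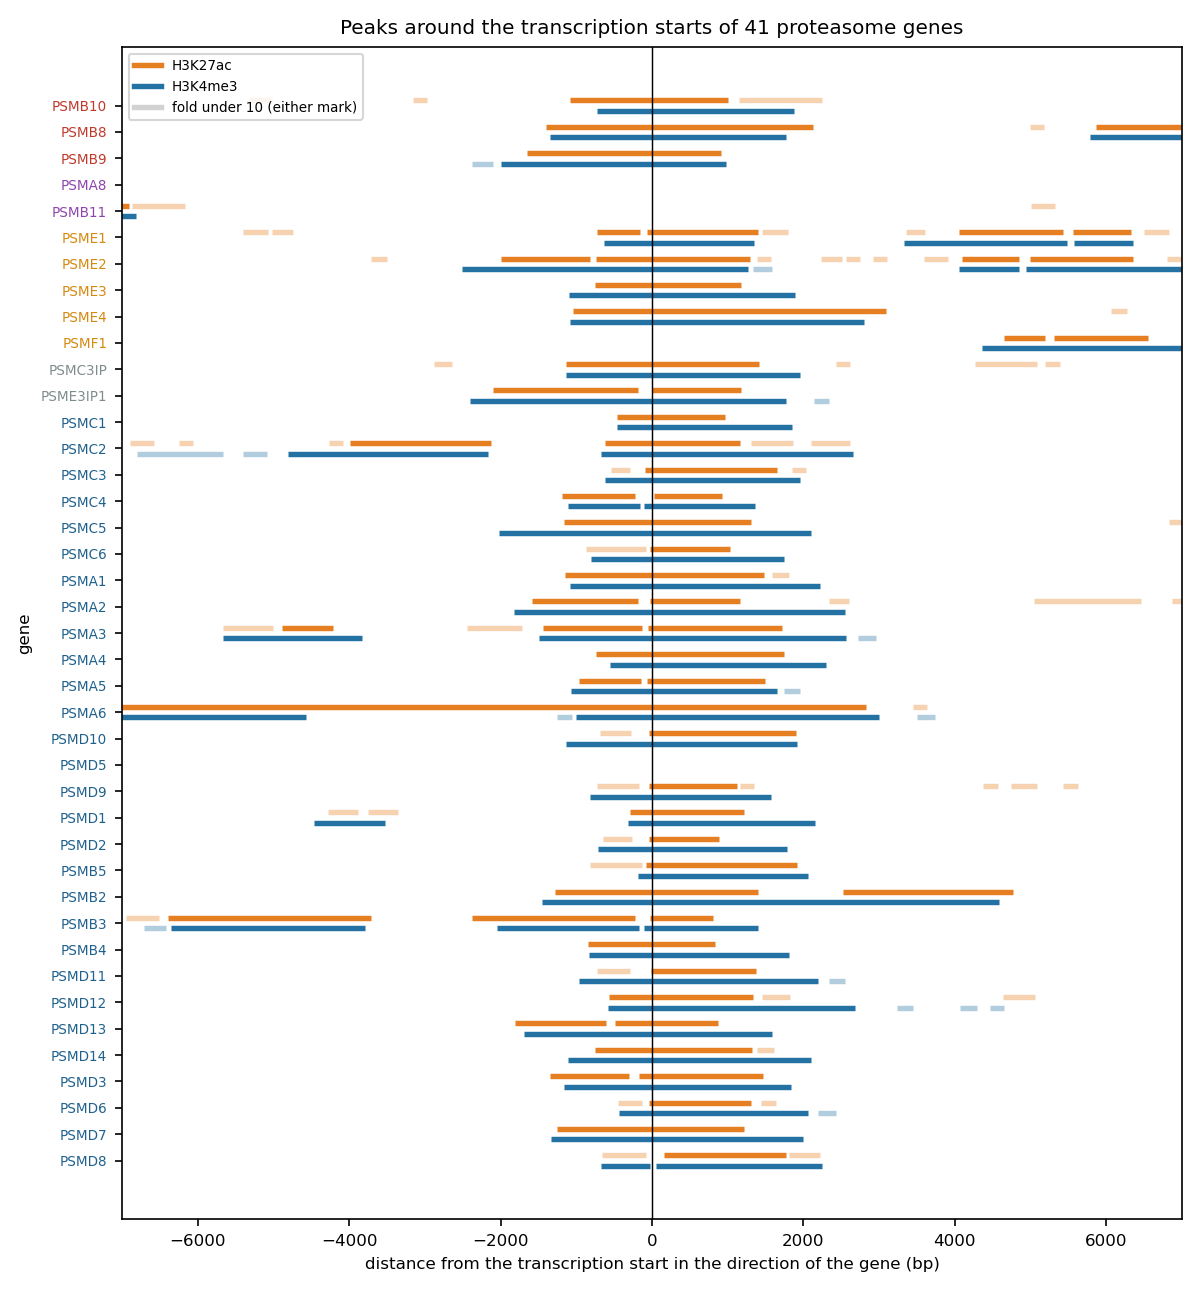
Peaks of H3K27ac (orange) and H3K4me3 (blue) around the listed start of 41 proteasome genes, with distance in bp in the direction of the gene and pale bars for peaks with a fold under 10. Label colours give the class as in the plot of folds by gene. PSMA8 and PSMD5 are empty, PSMF1 is marked from about 4 kb downstream on, and the H3K27ac bar of PSMA6 runs beyond the left edge.

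The other alpha ring genes were all marked. PSMA7 had the highest H3K27ac fold (46.8), shared in an interval of 3156 bp with SS18L1, and PSMA5 the lowest of those with a peak at the start (15.2). PSMA2 had 21.7 and PSMA3 had 28.4, and for H3K4me3 these 2 genes had 69.9 and 71.0. PSMA4 lies in a stretch of chromosome 15 with a raised expected background. Its H3K27ac summit had 237 fragments (208 to 269), the most of any member, yet its fold was 27.7 because the background there was 7.59. Its H3K4me3 summit had 307 fragments, also the most, with a fold of 47.8. The median background of H3K27ac peaks within 1 Mb of PSMA4 was 1.75 times that of the whole list, and around the other 45 members this ratio was 0.837 to 1.07. For H3K4me3 it was 1.87 around PSMA4 and 0.824 to 1.17 around the others. The fold of PSMA4 and its fragments are thus on different footings from those of the other members.

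Among the beta ring genes without proteolytic sites PSMB1 had the highest H3K4me3 fold, 87.6, in an interval of 5329 bp that also holds the start of TBP, the TATA-binding protein gene 1062 bp away. PSMB2 had the widest H3K4me3 interval of all members, 6039 bp, over H3K27ac intervals at its start (fold 20.6) and 3814 bp inside (fold 20.3). PSMB4 had 24.4 for H3K27ac and 80.0 for H3K4me3, and PSMB3 had 26.6 and 50.3.

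Among the groups with 6 or more genes the ATPase genes had the lowest median H3K27ac fold. Some smaller groups had lower medians, 14.5 for the assembly chaperones, 15.6 for the base genes and 15.7 for the constitutive catalytic genes. The 14.5 counts PSMD5, which had no peak, as 0, and over the 2 chaperone genes with a peak the median was 20.6. In summit fragments of the peaks at gene ends the median was 106 for the ATPase genes, 101 for the alpha ring and 132 for the lid. The alpha ring value counts PSMA1 and PSMA6 by peaks at their gene ends, with 96 and 15 fragments. At their listed starts these 2 genes had 134 and 198, so the order of the ATPase and alpha ring medians depends on that choice. The median backgrounds at gene ends were 5.13 for the ATPase, 4.22 for the alpha ring and 3.58 for the lid genes. PSMC1 to PSMC6 encode the ring that unfolds substrates, and their median H3K27ac fold was 17.1, with 13.7 at PSMC2 as the lowest and 31.4 at PSMC3 as the highest. For H3K4me3 PSMC2 was also the lowest of all members with a peak (36.9), and PSMC1 had 86.2. The background at PSMC2 was 6.35 for H3K27ac and 5.60 for H3K4me3, above the list medians of 3.63 and 2.66, and its summits held 100 and 243 fragments. PSMC4, PSMC5 and PSMC6 had H3K27ac folds of 18.8, 15.5 and 15.3 and H3K4me3 folds of 42.1, 61.8 and 63.1. PSMC3 had 168 fragments (144 to 195) of H3K27ac and lies 14.4 kb from the super-enhancer assigned to SPI1, the PU.1 gene, which ranks 119. None of the 46 genes overlapped a super-enhancer of the authors' deposited table, against 2.92% of all protein-coding genes, and none was a target gene there, against 2.25%. Within 100 kb of one lay 4 members (8.70%, Wilson interval 3.43 to 20.3), PSMC3, PSMD5, PSMD13 and PSMD9, against 9.5% of all genes.

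The base and lid genes included the highest H3K4me3 fold of the family. PSMD1, a scaffold of the base, had an H3K27ac fold of 42.2 from 160 fragments (136 to 187) and the highest H3K4me3 fold of all members, 94.7 from 279 fragments (247 to 314). PSMD2, also of the base, had 15.6 for H3K27ac from 71 fragments and 82.7 for H3K4me3 from 283. PSMD4, a ubiquitin receptor, had 15.5 and 45.1. The 8 lid genes had a median fold of 27.7 for H3K27ac and 79.3 for H3K4me3. PSMD14, which encodes the deubiquitinase of the lid, had 21.4 and 58.1, its partner PSMD7 had 38.0 and 84.6, and the lowest of the lid in H3K27ac was PSMD6 with 18.2. PSMD3, PSMD8, PSMD11 and PSMD12 had H3K27ac folds of 24.4 to 32.0 and H3K4me3 folds of 73.4 to 81.7. PSMD13 had 34.5 and 84.8 in intervals shared with SIRT3, a mitochondrial deacetylase gene that starts 45 bp away on the other strand.

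The counting intervals of the members were compared with the members' median. Among the 42 genes with an H3K27ac peak at an end the summit fragments were 15 (the peak at an end of PSMA6, which had 198 at its listed start) to 237 with a median of 123, and the interval of 25 genes excluded that median (12 below, 13 above). Among the 41 with H3K4me3 they were 172 to 307 with a median of 274, and the interval of 6 genes excluded it, namely PSMD14, PSMD6, PSMD9, PSMB3, PSMC4 and PSMD10, all below. The highest H3K4me3 summit of the whole list held 345 fragments, so these values lie near the top of its range, and the spreads of the marks were not compared. The H3K4me3 folds of the members were 36.9 to 94.7 and the backgrounds at these summits 1.92 to 5.60, so the order by fold is not the order by fragments. Genes that are neighbours in the order of H3K4me3 folds do not differ beyond counting error in fragments for most of that order.

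**Figure D4:**
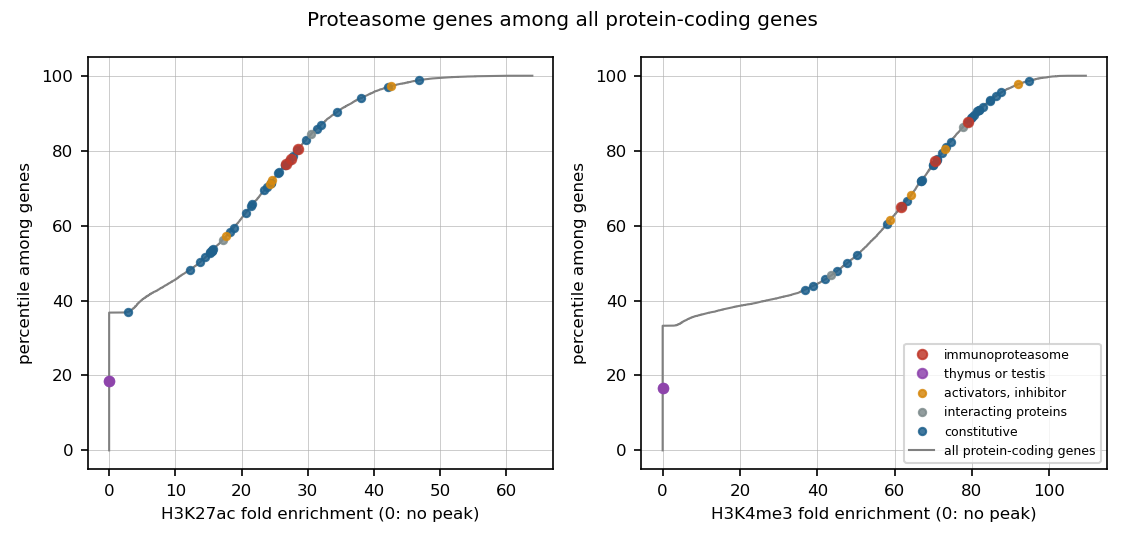
Fold enrichment of the strongest peak at a gene end against the percentile of that fold among 19974 protein-coding genes (grey line), for H3K27ac (left) and H3K4me3 (right). Points are the 46 proteasome genes by class, with genes without a peak at 0. The 3 immunoproteasome genes stand at percentiles 76.5 to 80.5 for H3K27ac, and PSMA7 is the highest member at 98.8.

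Around the 37 listed starts with peaks, summits lay mostly downstream, in shares near those of all genes. H3K4me3 summits lay downstream of the start at 30 of 37 (81.1%), against 81.6% of all genes with H3K4me3 there, and the median offset was 273 bp for the members and 241 bp for all genes. H3K27ac summits lay downstream at 25 of 37 (67.6%), against 69.9%, with median offsets of 183 and 175 bp. An H3K27ac interval covered the start at 34 of 37, against 85.9% of all such genes. At PSMC4, PSMD8 and PSME3IP1 the start fell in a gap between 2 H3K27ac intervals, which was seen at 7.24% of all such genes. At PSMD8 it also fell in a gap of H3K4me3, as at 0.609% of all such genes.

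The strongest H3K4me3 interval held the start of another protein-coding gene in 12 of 41 members (29.3%, 17.6 to 44.5), against 24.5% of all genes with the mark. For H3K27ac it was 6 of 42 (14.3%, 6.72 to 27.8), against 21.3%. In 8 of the 12 both starts are listed and lie on opposite strands, at PSMB9 with TAP1, PSME2 with RNF31, PSME4 with ACYP2, PSMA2 with the mitochondrial ribosome gene MRPL32, PSMC5 with FTSJ3, PSMD9 with HPD, PSMD10 with the autophagy gene ATG4A, and PSMD13 with SIRT3. At PSMC5 the H3K27ac and H3K4me3 summits lay 410 and 764 bp downstream of the start of FTSJ3, a ribosome biogenesis gene, and so on the FTSJ3 side of the start of PSMC5. The H3K4me3 values of these members are those of a shared interval. For H3K27ac the strongest interval is a shared one at PSMB9, PSME4, PSMC5 and PSMD13 among the 8. At PSME2 the strongest H3K27ac interval lies beyond the 3′ end, but the one at its start also covers the start of RNF31.

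Promoter windows of 300 bases (250 before and 50 after the start) were available for 41 members and 15813 genes. The core of the interferon-stimulated response element was found in 5 of the 41, PSMB10, PSME1, PSME2, PSMA4 and PSMB4, and in 3.17% of all promoters. The antioxidant response element core TGACNNNGC, letters bound by NFE2L1, the factor that raises proteasome genes when the proteasome is inhibited, was found in 11 of 41 (26.8%), among them PSMB9, PSME1, PSMD1, PSMD3, PSMD12 and PSMD5, and in 14.3% of all. CCGGAAG, an ETS motif, was found in 13 (31.7%, against 14.2%), CCAAT in 20 (48.8%, against 36.3%), GGGCGG, the GC box, in 27 (65.9%, against 58.5%), TATAAA in 5 (against 9.64%), the nuclear respiratory factor 1 motif in 5 (against 8.59%) and TTCNNNGAA in 5 (against 6.98%). Both strands were searched and motifs may overlap. These counts were not tested, and a match of letters does not show that a factor binds.

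Most other genes of the pathway were also marked. Of 36 listed genes 35 had both marks (97.2%), against 60.4% of all genes. They include the subunits with other names, ADRM1 (H3K27ac fold 33.4, H3K4me3 fold 102) and SEM1 (11.5 and 60.6), and the 8 proteasome-associated genes such as USP14 (30.5 and 71.7), a deubiquitinase. All 7 genes listed under NFE2L1 regulation had both, with NFE2L1 at 34.7 and 73.0 and DDI2, the protease that releases it, at 19.9 and 58.1. The exception was PSMG4, an assembly factor, which had neither mark at an end, while PSMG1, PSMG2, PSMG3, POMP and PAAF1 had both. Of the antigen processing partners B2M had 41.2 and 79.7 and TAP2 22.6 and 68.5. Of the interferon regulators IRF1, a factor that drives immunoproteasome genes, had 45.4 and 79.9.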

How the data were processed

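ChIP-seq of wild-type KBM7 cells was used as deposited, with 1 H3K27ac, 1 H3K4me3 and 1 input library. Per the submitters' processing notes, Bowtie2 2.3.4, bedtools 2.20.1 and hg38 were used, and no source here names the peak caller. The deposited peak lists give a fold at the summit, −log10 p, −log10 q and a score, which in 100% of rows is the −log10 q multiplied by 10 and truncated. The deposited super-enhancer table gives total H3K27ac and input signal, with a scaling that is not given, and the authors' score for rank. The input entered here only through that table.

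Fragments k and background e were solved from fold = (k + 1)/(e + 1) and the upper Poisson tail, within 0.01 in 100% of rows, and the solver was tested on simulated data. Gene ends and promoter sequences came from RefSeq (GRCh38.p14), where a start was listed for 41 of 46 members, and not for PSMA7, PSMB1, PSMB6, PSMB7 and PSMD4. Peaks were assigned if any base lay within 1 kb of a gene end. Intervals are exact Poisson or Wilson at 95%. No test between groups was run, because there is 1 library per mark. All 46 members are named, with full values for the immunoproteasome, thymus, testis, constitutive catalytic and unmarked genes and the extremes of each mark. PSMA4, PSMA1 and the other members with values were added after their values were seen. Values of 2 genes of these lists are not reported here. Members and lists were chosen with earlier results of these data known. Python 3.11.15, numpy 2.4.6, pandas 2.3.3, scipy 1.17.1, statsmodels 0.14.6 and matplotlib 3.10.9 were used.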

Additional observations from a re-analysis of the deposited data

How the results depend on the processing

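Counts of members with marks were within 1.5 times of those given, and medians within a counting interval, in 110 of 114 recomputed values. These limits are wide. A count such as 41 of 46 cannot rise by 1.5 times, and the interval is that of a single summit with the median fragments, not the error of a median. The number of values inside the limits is therefore no measure of stability. The settings were windows of 500 bp and 2 kb, the top 50% of peaks by fold, a −log10 q of at least 10, summits within 1 kb, listed starts only, whole gene bodies, other constitutive lists, the peak with most fragments and, added after seeing the data, gene ends or listed starts. Members with both marks were 41 of 46 with 500 bp and 2 kb, 40 with summits, 37 of 41 with listed starts and 43 of 46 over gene bodies, and 0 of 2 thymus and testis genes in each of these. The other 4 values replace fold by summit fragments and so change unit. For H3K27ac the medians were then 156 fragments in immunoproteasome genes and 115.5 in constitutive genes, and for H3K4me3 270 and 269.5. No paired analysis was possible because each mark has 1 library. The weakest listed H3K27ac summit held 9 fragments, so marks below that depth at unmarked genes would be missed. The lists are cut by q and not by depth, so marks above 9 fragments could be missed too where the expected background is higher.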
